A study of Mus musculus with 23 samples.

Results

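The genes of the voltage-gated sodium and calcium channels were examined in the whole brain of adult male mice whose recipient mothers had consumed different diets. Members were all probes, apart from control spots, whose gene name on the array was that of a sodium channel alpha or beta subunit (Scn followed by a number and a or b) or of a calcium channel alpha1, alpha2delta, beta, or gamma subunit (Cacna, Cacnb, Cacng). This rule used names and no measured value. It gave 58 probes of 40 genes, out of 39429 probes and 31829 gene names on the array. The pore-forming subunits made up 33 probes of 20 genes, and the accessory subunits 25 probes of 20 genes. One gene, Scn2a1, is now named Scn2a.

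In vitro fertilized C57BL/6J embryos had been transferred to ICR recipient mothers on the control diet (CD, AIN93G), a protein-restricted diet (PR), or the protein-restricted diet with supplemental folic acid (FA). Pups were delivered by caesarean section, nursed by ICR foster mothers, and weaned onto the CD in every group. The methods of the study state that the foster mothers were fed only the CD, and also that they consumed the experimental diets until delivery. Its results and its design legend name all of the diets for them. The recipient mothers consumed these diets from before the transfer until delivery. Whole brains, with cerebrum and cerebellum together, of 4 males per diet were each hybridized to 1 one-colour Agilent array. The study collected the brains after its behavioral tests, which included fear conditioning and tail suspension. Whole brain mixes all regions and cell types, and fewer cells of a type and less RNA per cell cannot be told apart in such samples.

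Voltage-gated sodium channels open when the membrane is depolarized and carry the rising phase of the action potential. Voltage-gated calcium channels open likewise and let in the calcium that triggers transmitter release, shapes dendritic firing, and signals to the nucleus. In both families 1 large alpha subunit forms the pore. Smaller accessory subunits (sodium channel beta, calcium channel alpha2delta, beta, and gamma) set how many channels reach the membrane and how they gate, and several gamma subunits serve chiefly as transmembrane AMPA receptor regulatory proteins (TARPs), which traffic glutamate receptors.

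All arrays of 1 diet came from the same slide and scan, and each diet had its own, so for every difference between diets given below the diet and the slide cannot be told apart. Of 43020 spots, 27068 to 28458 were well above the local background on the CD arrays, 31266 to 33478 on the PR arrays, and 30408 to 31672 on the FA arrays, and no spot was saturated. Values are log2 of the normalized intensity that was deposited for each probe. The number of arrays limits the precision. Signals of different probes cannot be ranked against each other, and each probe was compared only with itself between diets. Differences are log2 differences from a limma fit of the 3 diets, with their standard errors (SE), and a probe was called when its Benjamini-Hochberg adjusted p over all 39429 probes was under 0.05. Markers of neurons (5 of 6 listed genes on the array) were well above background on all 12 arrays, as were all listed markers of cerebellum, forebrain excitatory neurons, oligodendrocytes, astrocytes, and microglia.

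Of the 58 channel probes, 48 probes of 33 genes were well above background on all 12 arrays. Those for Scn7a, Scn9a, and Cacna1f were so on 0 of 12 arrays, and those for Cacng1 and 1 of the 2 Cacng2 probes on 1 array each. The other 5 probes reached it on 7 to 11 arrays. They were those for Cacna1b and 1 of the 3 Scn3a probes, neither of which was well above background on any CD array, and those for Cacna1c, Scn10a, and 1 of the 2 Cacna1s probes. None of these 10 dim probes was called in any comparison, and they are not described by their fold changes.

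Called probes of pore-forming subunits were mostly lower than in the CD, at a share near that of all probes in PR and above it in FA. Among the accessory subunits, lower and higher ones were about as many. Between PR and CD, 8 of 58 probes were lower and 5 higher, against 16.6% lower and 13.4% higher over all probes. Between FA and CD, 17 were lower and 5 higher, against 18.0% lower and 16.4% higher over all probes. Of the pore-forming probes, 5 of 33 were lower and 1 higher in PR, and 13 were lower and 1 higher in FA. Of the accessory probes, 3 of 25 were lower and 4 higher in PR, and 4 were lower and 4 higher in FA. The median log2 difference of the 58 probes was -0.09 in PR and -0.14 in FA, and that of all probes was -0.02 and -0.01. The share called lower in PR (13.8%) was thus near that of all probes, and the share called lower in FA (29.3%) was above it. The counts depended on single arrays. Without FA replicate 3, 11 probes were lower in FA. In PR, 5 were lower without PR replicate 3, and 3 were higher without PR replicate 1 or 4.

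The groups did not overlap for 14 of the 58 channel probes between PR and CD and for 24 between FA and CD, against 33.2% and 36.9% over all probes. Counted by genes, with the brightest probe of each, 5 of 40 were lower and 4 higher in PR (16.4% and 12.5% over all genes), and 10 were lower and 4 higher in FA (17.6% and 15.8%). No channel probe reached the limits of the study's methods, a 2-fold change with an adjusted p under 0.0001, which 0.0862% of all probes passed in PR and 0.195% in FA. Among the 23753 probes well above background on all 12 arrays, 14.3% were lower and 16.5% higher in PR, and 17.1% were lower and 19.9% higher in FA. These shares are the background for the 48 bright channel probes, of which 8 were lower and 5 higher in PR and 17 lower and 5 higher in FA.

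**Figure D1:**
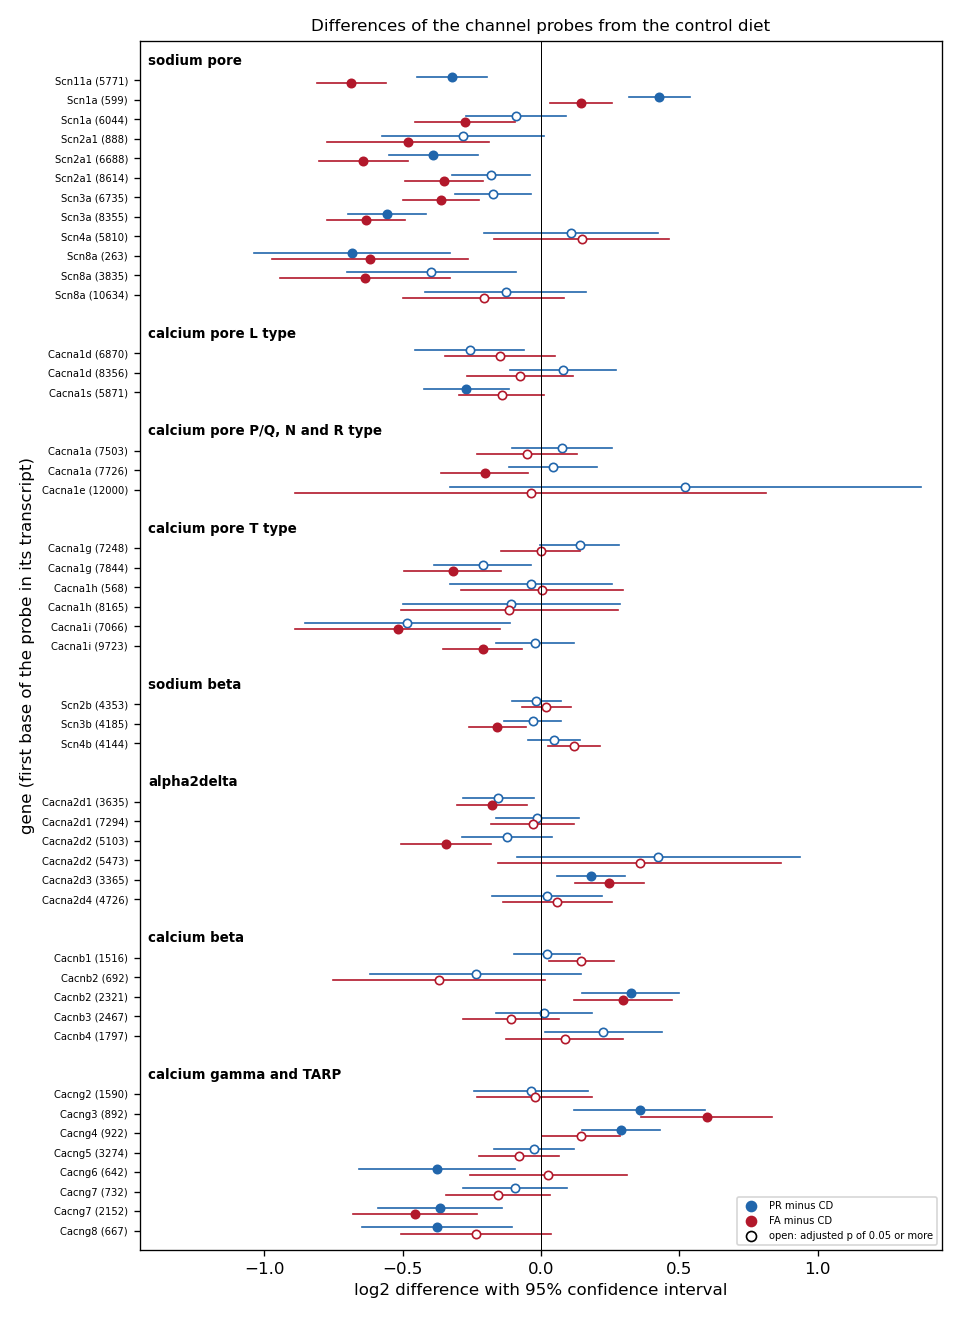
Log2 differences from the CD group (x axis) of 46 channel probes well above background on all 12 arrays, by subunit type, with 95% confidence intervals from the limma fit. Blue is PR minus CD, red is FA minus CD, filled points were called (adjusted p under 0.05), and the number after a gene is the first base of the probe in its transcript. Called points of the sodium channel pore lie to the left of 0 except for Scn1a (599), and those of the accessory subunits lie on both sides.

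Most of the lower pore-forming probes were those of sodium channels. In the FA group 9 of 17 probes were lower and 1 was higher (52.9% and 5.88%, against 18.0% and 16.4% over all probes). In the PR group 4 were lower and 1 was higher (23.5% and 5.88%, against 16.6% and 13.4%). Among the 13 of the 17 that passed the background limit on every array, 4 were lower in PR and 9 in FA. The median log2 difference of these 13 was -0.25 in PR and -0.36 in FA. Of the 4 sodium channels that the brain is known to use, Scn1a (Nav1.1, prominent in fast-spiking interneurons), Scn2a1 (Nav1.2), Scn3a (Nav1.3, abundant before birth), and Scn8a (Nav1.6, the channel of mature axon initial segments and nodes), 8 of the 10 bright probes were lower in FA and 1 was higher. Scn1a, Scn2a1, Scn3a, Scn7a, and Scn9a lie next to each other on chromosome 2 of mm9, and Scn8a lies on chromosome 15.

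Several of these genes carry probes at both ends of long transcripts, and their probes did not always move together. The sequences of some of them are shown because the probes of a gene are told apart below by their position in the transcript. No annotation of coding and untranslated exons was used, and the sequences were picked for an open reading frame. They are given 5′ to 3′ in the sense of the mRNA, with the base at which the probe starts. That base is read from the start column of the array files, which is not explained there and was taken as the position in the transcript because offsets between neighbouring probes mostly equalled those on the genome. Capitals mark the longest run of G and C letters in each.
Scn1a, base 599: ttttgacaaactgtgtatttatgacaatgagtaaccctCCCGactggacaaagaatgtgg
Scn1a, base 6044: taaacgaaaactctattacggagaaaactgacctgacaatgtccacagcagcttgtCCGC
Scn2a1, base 888: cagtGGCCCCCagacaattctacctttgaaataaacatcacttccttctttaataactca
Scn8a, base 263: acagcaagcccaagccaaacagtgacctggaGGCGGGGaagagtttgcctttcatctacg
Scn8a, base 3835: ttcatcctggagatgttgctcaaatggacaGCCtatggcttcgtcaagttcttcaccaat

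On the mm9 genome, the Scn1a probe at base 599 lies at chr2:66173498-66173557 and the one at base 6044 at chr2:66111022-66111081, 62476 bases apart on the minus strand. The Scn2a1 probe at base 888 lies at chr2:65521868-65521927, and those at bases 6688 and 8614 follow downstream, the last starting 83561 bases after the first. The Scn8a probes at bases 263 and 3835 lie at chr15:100766904-100766963 and chr15:100848863-100848922, and a probe at base 10634 starts 108798 bases downstream of the first. Each of the 5 probes printed above has at least 1 reading frame without a stop codon, and their GC content was 38.3% to 55%.

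Scn2a1 was lower in FA at all 3 probes. The probe at base 6688, which is spotted on each array several times, measured 13.00, 12.90, 12.92, and 12.89 on the CD arrays, 12.51, 12.62, 12.51, and 12.53 on the PR arrays, and 12.33, 12.34, 12.06, and 12.42 on the FA arrays. All PR values lay below all CD values, and all FA values below all PR values. Its log2 difference was -0.39 in PR (SE 0.07, limma adjusted p = 0.00286) and -0.64 in FA (SE 0.07, adjusted p = 0.000145), which is 1.56-fold lower. The probe at base 8614 measured 13.89 to 13.92 in CD, 13.64 to 13.79 in PR, and 13.38 to 13.71 in FA, so that neither restricted group overlapped with CD. It was called in FA (-0.35, SE 0.06, adjusted p = 0.00213) and not in PR (-0.18, SE 0.06, adjusted p = 0.0576, and as low as 0.025 without FA replicate 3 or 4). The probe at base 888 measured 8.73 to 9.27 in CD, 8.50 to 8.82 in PR, and 8.22 to 8.67 in FA, and was also called only in FA (-0.48, SE 0.13, adjusted p = 0.017), where its values lay below all CD values. The FA call at base 888 was lost with the Tukey test of the study's methods (adjusted p = 0.0626). The difference between FA and PR was called for none of the 3 probes.

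Scn3a fell in both groups at 1 of its probes. The probe at base 8355 measured 11.44, 11.25, 11.35, and 11.42 in CD, 10.70, 10.93, 10.84, and 10.77 in PR, and 10.81, 10.64, 10.75, and 10.75 in FA. The CD values stood apart from all others, and the PR and FA values overlapped. It differed by -0.56 in PR (SE 0.06, adjusted p = 0.000175) and by -0.63 in FA (SE 0.06, adjusted p = 8.93e-05), among the smallest adjusted p-values of all channel probes. The probe at base 6735, within 2265 bases of the other Scn3a probes, differed by -0.17 in PR (adjusted p = 0.0598, and as low as 0.029 without CD replicate 4 or PR replicate 2) and fell by 0.36 in FA (adjusted p = 0.00149). Its 4 FA values, 11.13, 11.12, 11.14, and 11.16, lay below all PR values (11.26 to 11.43), although the difference between FA and PR was not called (-0.19, adjusted p = 0.203).

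Scn8a fell at its upstream probes. At base 263 the values were 8.32, 8.69, 8.21, and 7.95 in CD, 7.60, 7.71, 7.65, and 7.48 in PR, and 7.74, 7.81, 7.30, and 7.87 in FA. Every PR and FA value was below every CD value. The difference was -0.68 in PR (SE 0.16, adjusted p = 0.00936) and -0.62 in FA (SE 0.16, adjusted p = 0.0131). With the Tukey test of the study's methods, the FA call at this base was lost (adjusted p = 0.0517). At base 3835 the values were 7.31 to 7.80 in CD, 6.98 to 7.11 in PR, and 6.44 to 7.00 in FA, with a call in FA (-0.64, SE 0.14, adjusted p = 0.00527) and none in PR (-0.40, SE 0.14, adjusted p = 0.0525, and 0.0179 without FA replicate 3). The probe near the other end, at base 10634, was called in neither group, with values of 10.35 to 11.06 in CD, 10.49 to 10.75 in PR, and 10.43 to 10.61 in FA. The 95% confidence interval of its difference was -0.42 to 0.16 in PR and -0.50 to 0.08 in FA. Without CD replicate 4 it was called in FA (-0.33, adjusted p = 0.0301).

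Scn1a was the exception, since its probes were called in opposite directions. At base 599 the values were 8.64, 8.60, 8.49, and 8.55 in CD, 8.96, 8.95, 9.00, and 9.08 in PR, and 8.64, 8.75, 8.70, and 8.77 in FA. The PR values lay above all others, and the FA values met the CD values at their lower end. The probe rose by 0.43 in PR (SE 0.05, adjusted p = 0.000186) and by 0.14 in FA (SE 0.05, adjusted p = 0.0449), and it was lower in FA than in PR (-0.28, SE 0.05, adjusted p = 0.0438). At base 6044 the values were 13.54, 13.79, 13.74, and 13.85 in CD, 13.65, 13.79, 13.63, and 13.48 in PR, and 13.46, 13.52, 13.33, and 13.52 in FA. That probe did not differ by the test in PR (-0.09, interval -0.27 to 0.09, adjusted p = 0.443) and fell in FA (-0.27, SE 0.08, adjusted p = 0.0256), where its values lay just below all CD values. That call was lost without CD replicate 2, 3, or 4 or FA replicate 1 or 3 (adjusted p of up to 0.0712). The FA call at base 599 was lost with any 1 of 9 of the 12 arrays left out, with an adjusted p of up to 0.117, while the PR call held with every array left out. The call between FA and PR was lost with any 1 of 11 arrays left out (up to 0.106).

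**Figure D2:**
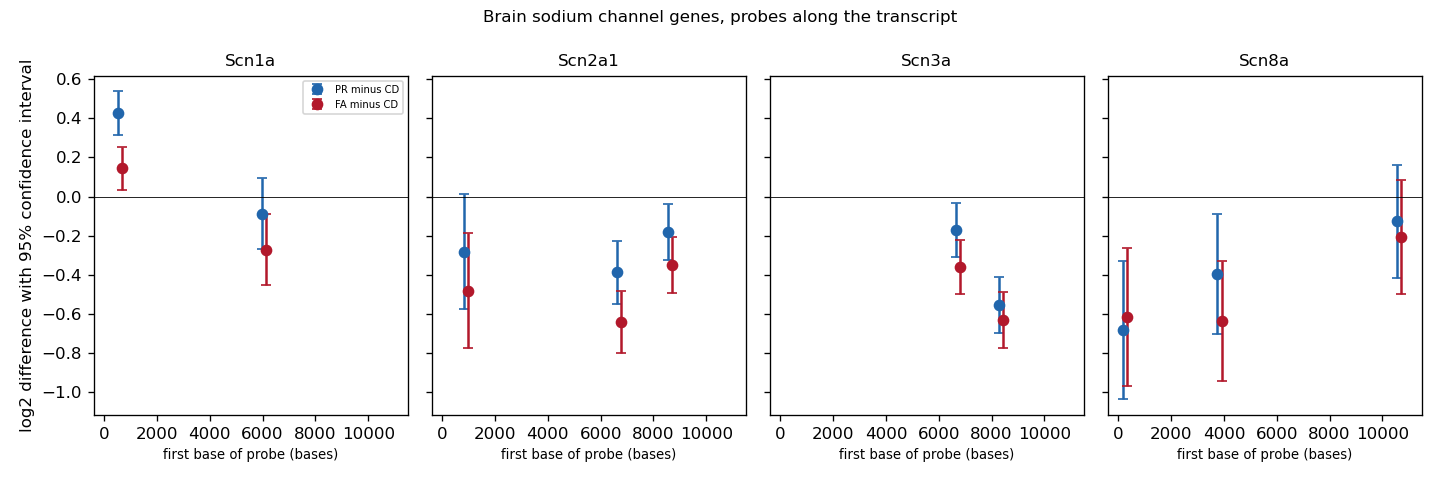
Log2 differences from the CD group (y axis) of the bright probes of Scn1a, Scn2a1, Scn3a, and Scn8a against the first base of each probe in its transcript (x axis, bases), with 95% confidence intervals from the limma fit of 4 arrays per diet. Blue is PR minus CD and red is FA minus CD, drawn slightly apart. Scn1a crosses from above 0 at base 599 to below it at base 6044, and the intervals of the last Scn8a probe span 0.

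Among the sodium channels known chiefly from other tissues, Scn11a (Nav1.9, a channel of nociceptive sensory neurons) gave the largest fall of any channel probe in FA. Its probe measured 7.29, 7.35, 7.45, and 7.38 in CD, 6.92, 7.07, 7.11, and 7.09 in PR, and 6.68, 6.64, 6.63, and 6.78 in FA. The 3 groups did not overlap. It fell by 0.32 in PR (SE 0.06, adjusted p = 0.00208) and by 0.68 in FA (SE 0.06, adjusted p = 7.23e-05), which is 1.61-fold lower, and it was lower in FA than in PR (-0.36, SE 0.06, adjusted p = 0.035). The last call was lost with any 1 of 8 arrays left out (adjusted p of up to 0.0879), and the others held throughout. Of 4 sensory ganglion markers, Isl1 and Prph were well above background on all 12 arrays, Mrgprd and Trpv1 on 1 array each, and none was called in any comparison. Their summed intensity was 806 to 914 in CD, 823 to 981 in PR, and 602 to 909 in FA, and the part of such cells in the Scn11a values was not tested.

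Scn4a (Nav1.4, the sodium channel of skeletal muscle) was not called. It measured 6.68 to 7.40 in CD, 7.08 to 7.28 in PR, and 7.01 to 7.41 in FA, with overlap throughout.

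**Figure D3:**
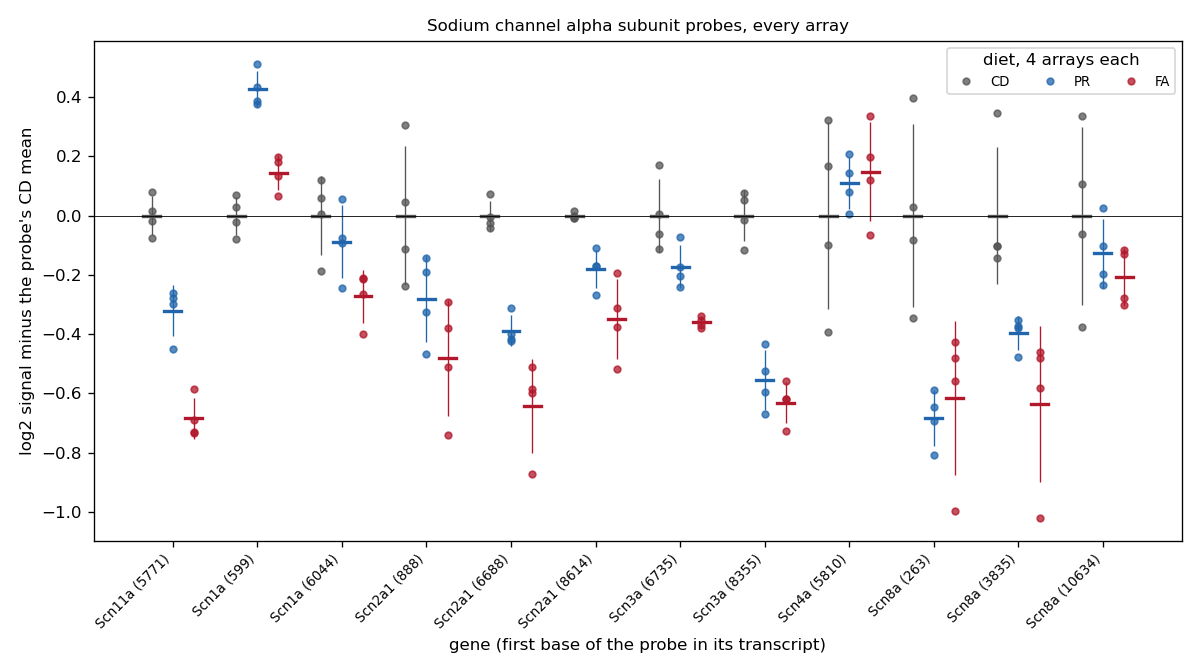
Log2 signal of each array minus the CD mean of the probe (y axis) for 12 sodium channel pore probes well above background on all arrays (x axis). Points are single arrays, 4 per diet, horizontal bars are means, and vertical lines are the SD. The 3 diets separate without overlap for Scn11a and for Scn2a1 at base 6688, and Scn1a at base 599 is the only probe whose PR arrays all lie above the CD arrays.

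Across all genes on the array, the position of a probe in its transcript moved with the same differences. Among the 23753 bright probes, those that start beyond base 5000 of their transcript (1937 probes) were lower in FA in 32.5% and higher in 8.83%, while those that start earlier (21816 probes) were lower in 15.7% and higher in 20.9%. Beyond base 8000 (455 probes), 52.5% were lower in FA and 27.5% in PR, and the median log2 difference was -0.23 in FA and -0.12 in PR. Sodium channel transcripts are long, and 9 of the 13 bright pore probes start beyond base 5000. Of these 9, 6 were lower in FA and 3 in PR. Of the 4 that start earlier, 3 were lower in FA, and 1, of Scn1a, was higher. Calcium channel pore probes lie as far downstream, with 11 of 12 bright ones beyond base 5000, of which 4 were lower in FA and 1 in PR. Only 3 of the 23 bright accessory probes start there. The part of transcript length or probe position in the lower sodium channel values was not tested.

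**Figure D4:**
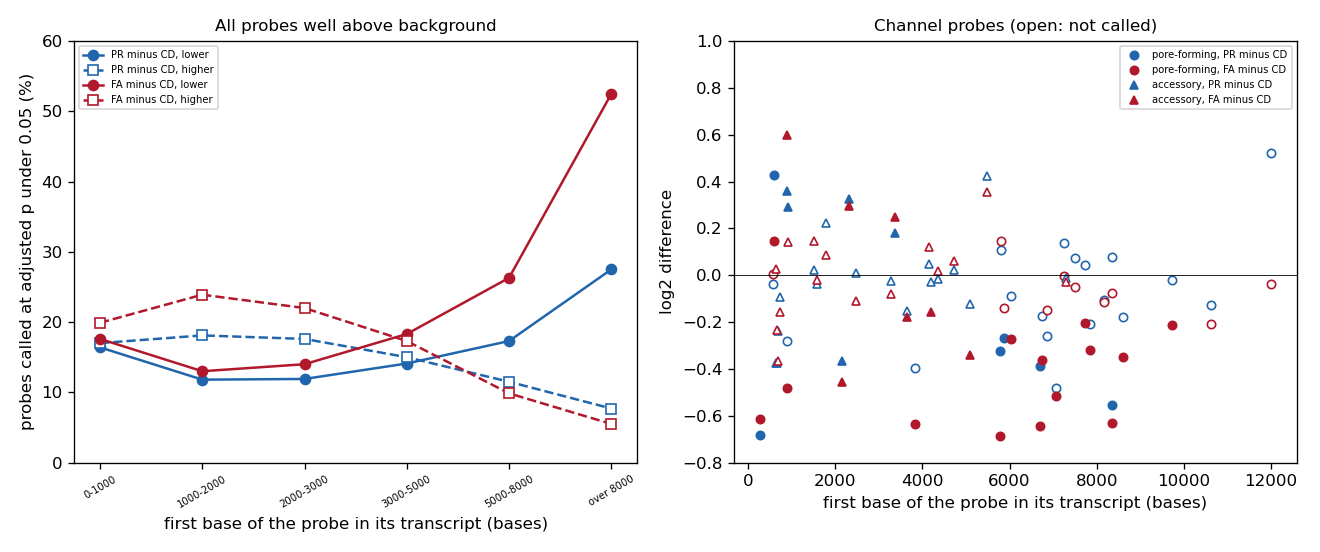
Left: share of all probes well above background that were called lower (solid lines) or higher (dashed lines) than CD, in percent, by the first base of the probe in its transcript. Right: log2 difference of 46 bright channel probes against the same position, with circles for pore-forming and triangles for accessory subunits, blue for PR minus CD, red for FA minus CD, and open symbols for differences that were not called. The share lower in FA reaches 52.5% beyond base 8000, and the called points of the channels beyond base 5000 all lie below 0.

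Of 16 calcium channel pore probes, 1 was lower and 0 higher in PR (6.25% lower, against 16.6% lower and 13.4% higher over all probes). In FA, 4 were lower and 0 higher (25.0% lower, against 18.0% lower and 16.4% higher). Of the bright ones beyond base 5000, 36.4% were lower in FA, near the 32.5% of all bright probes there. The median log2 difference of the 16 was -0.07 in PR and -0.13 in FA. None of the 16 was called between FA and PR. Of the 4 probes lower in FA, 3 were among the 6 of the T type. These are the low-threshold channels that drive burst firing in thalamus, cerebellum, and cortex.

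Cacna1i (Cav3.3, a T-type channel of thalamic reticular neurons) was lower in FA at both probes. At base 9723 it measured 12.95, 12.81, 12.97, and 13.07 in CD, 12.90, 12.93, 12.85, and 13.02 in PR, and 12.81, 12.63, 12.73, and 12.78 in FA, where the highest FA and the lowest CD value met. The difference in FA was -0.21 (SE 0.06, adjusted p = 0.0273) and that in PR -0.02 (adjusted p = 0.831). The FA call was lost without CD replicate 1, 3, or 4 or FA replicate 2 or 3 (adjusted p of up to 0.0705). At base 7066 it measured 8.89, 8.05, 8.02, and 8.23 in CD, 7.94, 7.74, 7.67, and 7.90 in PR, and 7.84, 7.80, 7.68, and 7.79 in FA, with CD replicate 1 far above the other CD arrays. The fall in FA was 0.52 (-0.52, SE 0.17, adjusted p = 0.0351), and without CD replicate 1 it was -0.32. The FA call was lost without CD replicate 4 or any 1 of the FA arrays (adjusted p of up to 0.082). In PR the difference at base 7066 was nearly the same, -0.48 (SE 0.17, adjusted p = 0.0516), with no overlap with CD. It was not called, except without CD replicate 1, 2, or 3 (as low as 0.0308). This probe is shown because it is the one most rich in G and C among the channel probes that were called, at 73.3%.
Cacna1i, base 7066: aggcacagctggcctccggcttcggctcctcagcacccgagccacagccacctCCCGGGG

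It lies at chr15:80225995-80226054 of mm9. Over the whole array, 208 bright probes had a GC content above 55%, of which 35.6% were lower in PR and 37.0% in FA, and the part of base composition in the value at base 7066 was not tested.

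Cacna1g (Cav3.1, the T-type channel of thalamic relay and Purkinje neurons) fell at base 7844, from 11.68 to 11.93 in CD to 11.45 to 11.56 in FA (-0.32, SE 0.08, adjusted p = 0.0103), with no overlap. In PR it differed there by -0.21 and was not called (adjusted p = 0.0689, and as low as 0.0167 without CD replicate 2 or PR replicate 2). Its other probe, 596 bases upstream, measured 11.40 to 11.52 in CD and 11.35 to 11.53 in FA, with an interval of -0.14 to 0.14. The probes of this gene therefore disagreed within the same 3′ end. Cacna1h (Cav3.2) was called at neither probe, with intervals in FA of -0.51 to 0.28 at base 8165 and -0.29 to 0.30 at base 568. Without CD replicate 1, the probe at base 8165 was called in FA (-0.31, adjusted p = 0.0455).

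Among the P/Q, N, and R types, which supply presynaptic calcium, only Cacna1a (Cav2.1, the P/Q channel of most fast synapses and of Purkinje neurons) had a called probe. At base 7726 it measured 10.50, 10.52, 10.59, and 10.81 in CD, 10.72, 10.69, 10.56, and 10.63 in PR, and 10.46, 10.37, 10.32, and 10.45 in FA. The FA values lay below those of both other groups, with a difference from CD of -0.20 (SE 0.07, adjusted p = 0.0483), a call that was lost with any 1 of 10 of the 12 arrays left out. At base 7503, 223 bases upstream, the gene was not called (-0.05 in FA, interval -0.23 to 0.13). Cacna1e (Cav2.3, the R type) measured 5.71 to 6.51 on 11 of the arrays and 8.04 on that of PR replicate 2, and was called in neither group.

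Of the L type, whose channels couple activity to gene expression in neurons and to contraction in muscle, Cacna1s (Cav1.1, the skeletal muscle channel) was lower in PR. At base 5871 it measured 9.02, 9.07, 9.01, and 8.97 in CD, 8.62, 8.83, 8.73, and 8.82 in PR, and 8.94, 8.94, 8.94, and 8.68 in FA. All CD values lay above all others. The difference was -0.27 in PR (SE 0.07, adjusted p = 0.015) and -0.14 in FA (SE 0.07, adjusted p = 0.143). The call in PR held with each of the 12 arrays left out. Skeletal muscle markers (5 of 5 genes on the array, 2 of them well above background on all arrays) had a summed intensity of 654 to 1527 in CD, 606 to 690 in PR, and 758 to 1875 in FA. FA replicate 1 held the highest values of Myh4 (9.28, against 5.17 to 6.24 elsewhere) and CD replicate 4 the highest of Acta1 (10.47, against 9.03 to 9.83), and their part in the Cacna1s difference was not tested. Cacna1d (Cav1.3) was not called at either probe, with -0.26 (adjusted p = 0.052) at base 6870 and 0.08 (adjusted p = 0.52) at base 8356 in PR.

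The sodium channel beta subunits, which are also cell adhesion molecules, had a probe each. Scn3b measured 11.73 to 11.91 in CD, 11.77 to 11.80 in PR, and 11.62 to 11.72 in FA, and fell slightly in FA (-0.16, SE 0.05, adjusted p = 0.0233), a call that was lost without CD replicate 3 or 4 or FA replicate 1 or 3 (up to 0.0629). Scn2b (15.10 to 15.20 in CD) and Scn4b (14.24 to 14.30 in CD) were not called. The interval of the FA difference was -0.07 to 0.11 for Scn2b and 0.02 to 0.21 for Scn4b, the latter with an adjusted p of 0.0528 and no overlap between FA (14.36 to 14.42) and CD.

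The alpha2delta subunits carry calcium channels to the presynaptic membrane, and Cacna2d1 and Cacna2d2 bind the drug gabapentin. They went in different directions. Cacna2d2, strongly expressed in Purkinje neurons, measured 13.62, 13.55, 13.52, and 13.48 in CD, 13.36, 13.57, 13.27, and 13.48 in PR, and 13.34, 13.11, 13.23, and 13.12 in FA at base 5103, a fall of 0.34 in FA (-0.34, SE 0.07, adjusted p = 0.00511) with no overlap. Its second probe, 370 bases downstream and poor in G and C at 21.7%, was not called (0.36, interval -0.15 to 0.87). Cacna2d1 fell in FA at base 3635 (-0.18, SE 0.06, adjusted p = 0.0367) and was not called at base 7294 (-0.03, interval -0.18 to 0.12). The former call was lost without CD replicate 1 or 4 or FA replicate 1, 2, or 3 (up to 0.0976). In PR, Cacna2d1 differed by -0.15 at base 3635 (adjusted p = 0.0687) and was not called. Cacna2d3 measured 12.87, 12.74, 12.93, and 12.77 in CD, 13.03, 13.03, 12.94, and 13.02 in PR, and 13.04, 13.13, 12.98, and 13.14 in FA. It was higher in both groups (0.18 in PR, adjusted p = 0.0327, and 0.25 in FA, adjusted p = 0.00626), with no overlap with CD. The PR call was lost without CD replicate 2 or 4 or PR replicate 1, 2, or 4 (up to 0.0833). Cacna2d4 was not called, with an interval of -0.14 to 0.26 in FA.

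Of the calcium channel beta subunits, which chaperone the pore to the membrane, only Cacnb2 was called. At base 2321 it measured 8.25, 8.05, 8.21, and 8.30 in CD, 8.61, 8.49, 8.44, and 8.56 in PR, and 8.56, 8.32, 8.66, and 8.47 in FA. Every PR and FA value exceeded every CD value. It rose by 0.32 in PR (SE 0.08, adjusted p = 0.0117) and by 0.30 in FA (SE 0.08, adjusted p = 0.0153). At base 692 the same gene gave -0.24 in PR and -0.37 in FA, not called, with intervals of -0.62 to 0.15 and -0.75 to 0.02. For Cacnb1, Cacnb3, and Cacnb4, which was the subunit with the widest spread in CD (11.75 to 12.18), the intervals of the FA difference were 0.03 to 0.27, -0.28 to 0.07, and -0.13 to 0.30.

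The gamma subunits include the TARPs Cacng2 (stargazin), Cacng3, Cacng4, Cacng5, Cacng7, and Cacng8. Cacng3, a TARP of forebrain neurons, gave the largest rise of any channel probe in FA. It measured 10.09, 10.22, 9.98, and 10.05 in CD, 10.73, 10.14, 10.40, and 10.51 in PR, and 10.70, 10.73, 10.62, and 10.69 in FA. The FA values were close together and above all CD values, and PR replicate 2 lay within the CD range. It rose by 0.60 in FA (SE 0.11, adjusted p = 0.00179), which is 1.52-fold, and by 0.36 in PR (SE 0.11, adjusted p = 0.0284), where the call was lost without CD replicate 1, 3, or 4 or PR replicate 1 or 4 (up to 0.0721). The probe lies at chr7:129912275-129912334 of mm9.
Cacng3, base 892: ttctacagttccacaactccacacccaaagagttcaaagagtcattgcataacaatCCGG

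Forebrain excitatory markers had a summed intensity of 13117 to 15225 in CD, 14042 to 15734 in PR, and 13794 to 16909 in FA, with overlap between all groups, but single markers moved in both directions. Neurod6 was higher in PR (0.19, adjusted p = 0.039) and in FA (0.44, adjusted p = 0.000399), as Cacng3 was, while Tbr1 was lower at base 970 (-0.81, adjusted p = 0.00904, and -0.70, adjusted p = 0.015) and not called at base 3898. Of the 6 probes of the list, 2 were lower and 2 higher in PR, and 2 were lower and 1 higher in FA. Over all probes, 16.6% were lower and 13.4% higher in PR, and 18.0% and 16.4% in FA. The part of these cells in the Cacng3 rise was not tested. Cacng4 rose in PR (8.34 to 8.61 in CD against 8.66 to 8.85 in PR, 0.29, SE 0.06, adjusted p = 0.00698) and was not called in FA (0.14, adjusted p = 0.107). Cacng2 and Cacng5, which lies beside Cacng4 and Cacng1 on chromosome 11, were not called, with intervals in FA of -0.23 to 0.19 and -0.22 to 0.07.

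Cacng6, Cacng7, and Cacng8 are neighbours on chromosome 7 of mm9, and each was lower in PR. Cacng7, known for its expression in cerebellum, measured 14.87, 14.69, 14.80, and 14.83 in CD, 14.59, 14.65, 14.29, and 14.21 in PR, and 14.30, 14.30, 14.50, and 14.28 in FA at base 2152. It fell by 0.36 in PR (SE 0.10, adjusted p = 0.0208) and by 0.46 in FA (SE 0.10, adjusted p = 0.00596), with no overlap with CD, and the PR call was lost without CD replicate 1 or PR replicate 3 or 4 (up to 0.0578). At base 732 the gene was not called, with -0.09 in PR and -0.16 in FA. Cacng8, a TARP of hippocampus, measured 7.05 to 7.48 in CD and 6.74 to 7.00 in PR (-0.37, SE 0.12, adjusted p = 0.0416), and Cacng6 5.95 to 6.47 in CD and 5.65 to 6.12 in PR (-0.38, SE 0.13, adjusted p = 0.0479). Neither was called in FA. The Cacng6 call was lost with any 1 of 10 of the 12 arrays left out (adjusted p of up to 0.12), and the Cacng8 call with any 1 of 6 (up to 0.105).

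**Figure D5:**
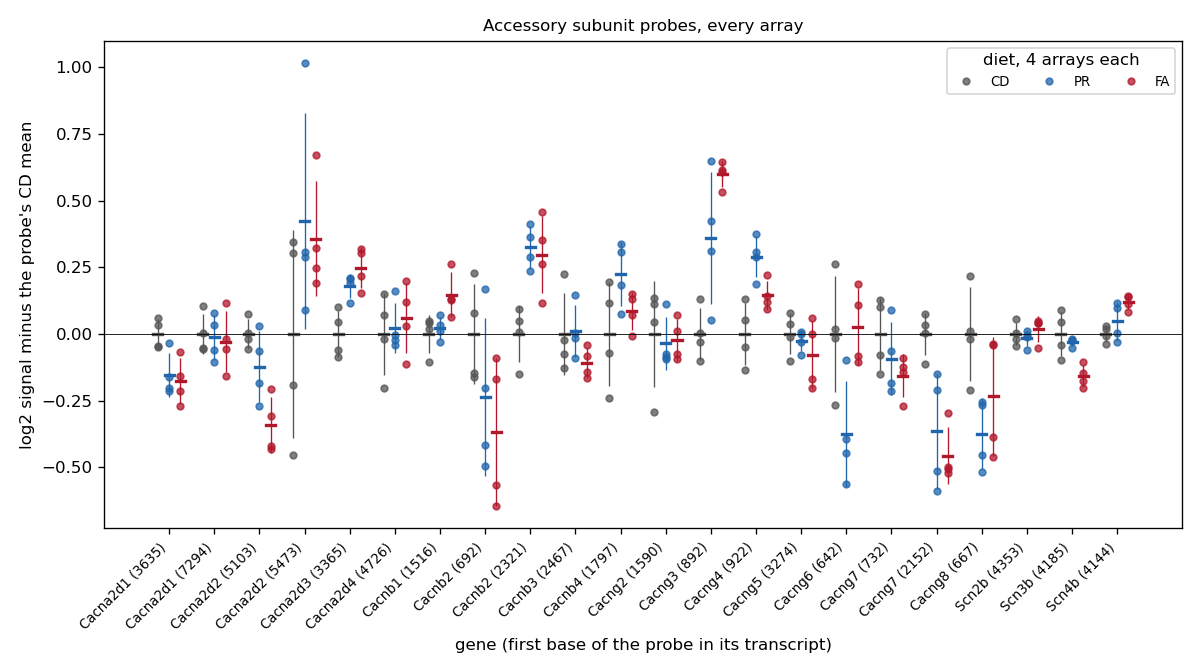
Log2 signal of each array minus the CD mean of the probe (y axis) for 22 accessory subunit probes well above background on all arrays (x axis, with the first base of the probe in its transcript). Points are single arrays, 4 per diet, horizontal bars are means, and vertical lines are the SD. The FA arrays of Cacng3 lie above all CD arrays, and those of Cacng7 at base 2152 and Cacna2d2 at base 5103 lie below them.

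Directly compared, FA and PR differed in 2 of 58 channel probes, both lower in FA, Scn11a and Scn1a at base 599, against 0.386% lower and 0.228% higher over all probes. None was higher. Over all settings that left out 1 array, 0 to 2 were lower. The median log2 difference of the 13 bright sodium pore probes was -0.18, and 11 of them lay below 0. Of the 13, 9 start beyond base 5000. Among all bright probes beyond that base, 1317 of 1937 lay below 0, with a median of -0.05. Over all 23753 bright probes, 10952 lay below 0, with a median of 0.01. A probe called in FA and not in PR, such as Scn8a at base 3835, is thus not shown to differ between those diets. Of the 7 bright sodium pore genes, Scn11a alone was called between FA and PR at its brightest probe.

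Genes that work with the sodium channels were lower in FA in part. Of 15 listed genes, 14 were on the array with 24 probes, of which 4 were lower and 1 higher in PR and 10 were lower and 1 higher in FA, against 16.6% lower and 13.4% higher in PR and 18.0% lower and 16.4% higher in FA over all probes. The share lower in PR was thus near that of all probes, and the share lower in FA was above it. This list and the other gene lists were chosen with earlier results of these data known, and their shares were not tested. Ank3 (ankyrin-G, which anchors sodium channels at the axon initial segment) was lower in FA at all 3 probes, by -0.44 (adjusted p = 0.0169), -0.41 (adjusted p = 0.00356), and -0.34 (adjusted p = 0.00107), and was called at none in PR. Ank2 (ankyrin-B) was lower in both groups (-0.17 in PR, adjusted p = 0.036, and -0.36 in FA, adjusted p = 0.000684). The Ank2 probe, at base 5620, and the Ank3 probes at bases 6169 and 9365 start beyond base 5000. Of all bright probes beyond that base, 32.5% were lower in FA. The part of probe position in the lower partner values was not tested. Fgf13, an intracellular modulator of sodium channels, was lower in FA (-0.31, adjusted p = 0.0109), and Fgf11, Fgf12, and Fgf14 were not called.

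Of the 18 listed calcium channel partners, with 24 probes, 5 probes were lower and 3 higher in PR, and 6 were lower and 2 higher in FA. In PR, the shares were near those of all probes (16.6% lower, 13.4% higher). In FA, the share lower was somewhat above that of all probes (18.0%), and the share higher was below it (16.4%). Gem, a small GTPase that inhibits calcium channels through the beta subunit and is induced by activity, was lower at both probes, by -0.56 and -0.75 in PR (adjusted p = 0.000159 and 0.00719) and by -0.68 and -0.95 in FA (adjusted p = 7.36e-05 and 0.00166). Its relatives Rem2 and Rrad were not called. Stx1a (syntaxin-1A) was higher in both groups (0.21 in PR, adjusted p = 0.0303, and 0.20 in FA, adjusted p = 0.0349), and Rims1, a scaffold of the presynaptic active zone, was lower at base 803 (-0.38 and -0.59, adjusted p = 0.0345 and 0.00357) and not called at base 4244.

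Of 17 listed genes of other cation channels, with 19 probes, 6 probes were lower and 1 higher in each group, against 16.6% lower and 13.4% higher in PR and 18.0% lower and 16.4% higher in FA over all probes. Catsper3 and Hcn4 are among the lower ones and were well above background on 0 of 12 arrays. Nalcn, the sodium leak channel that sets resting excitability and is a relative of the voltage-gated channels, was lower in PR (-0.29, SE 0.08, adjusted p = 0.0206) and in FA (-0.73, SE 0.08, adjusted p = 0.000127), and lower in FA than in PR (-0.44, adjusted p = 0.0473). Its partners Unc79 (-0.24 and -0.39, adjusted p = 0.0297 and 0.00231) and Unc80 at base 10950 (-0.23 and -0.56, adjusted p = 0.022 and 0.000176) were lower in both groups, while Unc80 at base 712 was called in neither. The probes of Nalcn, Unc79, and this Unc80 probe start beyond base 5000.

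Some markers of other tissues, regions, and cell types differed between the diets, and others did not. The summed intensities of the neuron, parvalbumin interneuron, oligodendrocyte, endothelium, heart muscle, choroid plexus, and blood markers overlapped between all diets. No choroid plexus or blood probe was called. The 6 cerebellum markers had a summed intensity of 82823 to 86011 in CD, 77854 to 80881 in PR, and 66511 to 77424 in FA, with no overlap between groups, and Pcp2, Zic1, and 1 of the 2 Calb1 probes were lower in FA (Pcp2 -0.25, adjusted p = 0.0215) while Cbln3 was higher (0.47, adjusted p = 0.00203). The 5 pituitary markers summed to 1943 to 2029 in CD, 930 to 1172 in PR, and 587 to 1478 in FA, with Gh and Prl well above background on 5 arrays each. The 4 microglia markers summed to 22041 to 23813 in CD, 19688 to 22382 in PR, and 20086 to 21136 in FA, with no overlap between FA and CD. Of their 7 probes, 2 were lower and 2 higher in each group, against 16.6% lower and 13.4% higher in PR and 18.0% and 16.4% in FA over all probes. Aif1 was lower (-0.37 in PR, adjusted p = 0.00957, and -0.28 in FA, adjusted p = 0.0313). Cx3cr1 was higher at base 2462 (0.62 in PR, adjusted p = 0.000152, and 0.38 in FA, adjusted p = 0.00209). The sums of the 4 astrocyte markers overlapped between groups, from 43207 to 46212 in CD, 44933 to 48874 in PR, and 45765 to 48221 in FA. Gfap was nevertheless higher at 2 of its 3 probes (at base 2207 by 0.43 in PR, adjusted p = 0.000992, and by 0.32 in FA, adjusted p = 0.00446), and Aqp4 was lower in FA at both. The part of any of these in the channel differences was not tested.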

How the data were processed

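The authors hybridized RNA of 12 whole brains to one-colour Agilent arrays with mm9 annotation and read the images with Feature Extraction 11.0.1.1. What they deposited are background-corrected spot intensities per array and a table of probe intensities, linear and not logged, after qspline normalization, which maps the quantiles of each array onto a common target. The flags of the scanner files, deposited as 0 or 1 in other columns, mark spots well above background. The log2 of the table was analysed here. On each array, a probe passed the background limit if 50% or more of its spots were so marked.

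A limma fit (version 3.58.1, R 4.3.3) took the 3 diets together over all 39429 probes, with two-sided moderated statistics and Benjamini-Hochberg adjustment per comparison. The 3 comparisons (PR minus CD, FA minus CD, FA minus PR) share samples with each other. The Tukey test of the study's methods was an alternative. The fit was tested on simulated data. Tables and plots were made with Python 3.11.15, pandas 2.3.3, numpy 2.4.6, scipy 1.17.1, and matplotlib 3.10.9.

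Probes and gene lists were chosen with earlier results of these data known. Named were called probes with a log2 difference of at least 0.5 in size, the 5 largest called rises and falls of each comparison with CD, all calls between FA and PR, genes whose probes disagreed, and the main brain subunits. Symbols are those of the files. Of 58 accessions, 55 matched a RefSeq table of GRCm38. Probe positions come from the array annotation. For 3629 pairs of neighbouring probes of 1 transcript within 3 kb, its offsets equalled the genomic ones in 85.1%. Methylation samples were not analysed here. Some genes are not reported here by name, and the counts include them.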

Additional observations from a re-analysis of the deposited data

Results flagged for a closer look

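Scn11a and Scn1a at base 599 were the channel probes that differed between the FA and PR groups, by -0.36 and -0.28 on the log2 scale (limma, test of that difference over all probes, adjusted p = 0.035 and 0.0438). Scn11a was lower in PR and lower still in FA than in CD, whereas Scn1a at base 599 was higher in PR and between PR and CD in FA.

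Within a diet, 8 of the values stood apart from the other 3 arrays, out of 153 groups of 4 that were examined, and chance flags about 1 in 20 groups. The gap of that array to its nearest neighbour, as a share of the range of the group, was 0.975 for Cacna1s at base 5871 in FA replicate 4, 0.93 for Cacna1e in PR replicate 2, 0.843 for Cacna1h at base 8165 in CD replicate 1, 0.902 for Cacna1h at base 568 in CD replicate 4, 0.914 for Scn8a at base 3835 in CD replicate 2, 0.897 for Cacng2 in PR replicate 2, 0.894 for Cacng7 at base 2152 in FA replicate 3, and 0.934 for Scn2b in FA replicate 3. Without PR replicate 2, the PR difference of Cacna1e was 0.07 in place of 0.52.

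FA replicate 3 was the lowest of the FA arrays for 7 of the 13 bright sodium pore probes and the highest for 0 of them.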

How the results depend on the processing

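The number of lower and higher channel probes between PR and CD (8 and 5) and between FA and CD (17 and 5) kept within 1.5 times of these values under most alternatives. With the Tukey test of the methods the counts were 5 and 3 in PR and 10 and 3 in FA. With only the 2 diets compared in the fit, 3 were higher in PR. With the normexp background correction, 8 were higher in FA. With the variance trend and robust estimation, 7 sodium pore probes were lower in PR, in place of 4. At the limits of the methods, every count was 0, those of the sodium pore included. With 1 array left out, 5 to 10 were lower and 3 to 5 higher in PR, 11 to 18 were lower and 4 to 5 higher in FA, and 4 to 6 sodium pore probes were lower in PR and 8 to 10 in FA. Between FA and PR, the 2 lower probes became 0 with the replicate block, with only those 2 diets in the fit, with the Tukey test, and at the limits of the methods, and 0 to 2 with 1 array left out. In that comparison 14 of the 58 had an unadjusted limma p under 0.05, against 5572 of all 39429 probes. With the median of the probes of a gene in place of the brightest, 6 genes were lower and 4 higher in PR, and 8 and 3 in FA, out of 37 with a probe above background.

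Scaling to the 75th percentile turned the FA difference of Scn2b from 0.02 to -0.11, with a call (adjusted p = 0.0421). No other call changed its direction. No call was kept at the limits of the methods. Under all other alternatives for single probes, 8 of 13 calls in PR and 12 of 22 in FA were kept, and with any 1 array left out 8 of 13 and 14 of 22. The cause was not tested.

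Same-numbered arrays of different diets share a position on the slide, and the sample titles name no other link. Their deviations from the group means correlated with -0.06 to 0.20 (median 0.03, 12 pairs), against -0.22 to 0.18 (median -0.02, 36 pairs) for other numbers. Such correlations cannot exclude a pairing of the mice. With the replicate block, 11 probes were lower and 4 higher in PR, and 16 and 3 in FA. With 4 arrays per diet, small differences were often not detectable.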
